A study of Mus musculus with 12 samples.

Results

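The genes described here encode the subunits of the voltage-gated sodium and calcium channels: every gene whose symbol has the form Scn, a number and a or b, Cacna1 and a letter, Cacna2d1 to Cacna2d4, or Cacnb1 to Cacnb4. The annotation holds 32 such symbols, and 31 of them were among the 24590 genes with a value in the hippocampal RNA of 12 mice; Scn4a, the skeletal muscle sodium channel, was listed in no mouse. The mice came from 2 lines with a deletion in Shank2, which encodes a scaffold that holds receptors and signalling proteins in place beneath glutamatergic synapses, and the series was made to compare knockout with wild-type expression. The 4 groups of 3 male mice were Shank2 exon 7 deletion knockouts (exon 7 KO), their exon 7 wild types (exon 7 WT), Shank2 exon 6-7 deletion knockouts (exon 6-7 KO) and their exon 6-7 wild types (exon 6-7 WT). All carried a mixed C57BL/6J and C57BLl/6N background, spelled as in the labels. The protocol names littermates 8 to 15 weeks old used for behavioural experiments, gives no Cre driver or transgene, and does not say whether the sequenced mice had been tested. Each mouse has a number of its own, so that replicates are separate animals. Whole hippocampi were used, and fewer cells of a type cannot be told apart from less RNA per cell.

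A voltage-gated channel opens when the membrane depolarises. In a sodium channel the alpha subunit forms the pore and starts the action potential, while beta subunits adjust its gating and its anchoring to other cell surface molecules. In a calcium channel the alpha1 subunit forms the pore and sets the current type: the P/Q, N and R types admit calcium at nerve terminals and dendrites, the L types couple activity to transcription, and the T types open at low voltage and favour burst firing. The intracellular beta subunits carry the alpha1 subunit to the membrane, and the extracellular alpha2delta subunits, some of which bind gabapentin, raise its surface density.

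The values are FPKM, in which fragments are counted relative to transcript length and library size, scaled so that the median gene agrees between libraries. Levels of different genes are set side by side on this per-length scale, but the lines differed by an amount that varied with transcript length, described further on, so that orders and ratios of genes of unequal length are not simply comparable between the lines. Of the 31 genes, 23 had a mean of at least 1 scaled FPKM and entered the test. The lowest of these was Scn4b with a mean of 3.85, and the highest of the 8 that stayed out was Cacna1s with a mean of 0.735. In the test were 4 of 10 sodium alpha genes, all 4 sodium beta genes, 8 of 10 calcium alpha1 genes, 3 of 4 alpha2delta genes and all 4 calcium beta genes. The 23 genes are long: their longest transcripts had a median of 8225 nt, against 3296 nt over all genes tested, and ran up to 14921 nt in Cacna1e. Each library listed 19515 to 20334 genes. In 4 libraries, 1 of each group (KO969, WT628, KO776 and WT778), the gene ENSMUSG00000095746 was not listed although it was in the other 8, and these 4 libraries stand apart from the rest. For the tested channel genes named for a small p or a large difference, the difference is given also within them and within the other 8. The targeted gene, Shank2, had 33.2, 43.5 and 44.6 scaled FPKM in exon 7 KO, against 36, 42.4 and 44.1 in exon 7 WT, so that the value over the whole gene does not check the labels of this line. It had 6.22, 7.02 and 6.15 in exon 6-7 KO, against 14.4, 13.8 and 14.9 in exon 6-7 WT, with every knockout below every wild type.

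None of the 23 channel genes passed the threshold between knockout and wild type in either line, and the differences that came closest were small. The clearest pattern lay between the lines: 19 of the 23 genes were higher in exon 7 WT than in exon 6-7 WT and 2 were lower, where 67.1% of all genes passed, 34% higher and 33.1% lower. With length and GC trends removed, 12 of the 23 passed, where 48.7% of all genes did. The plot of levels shows the order of the genes and the distance between the lines.

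**Figure D1:**
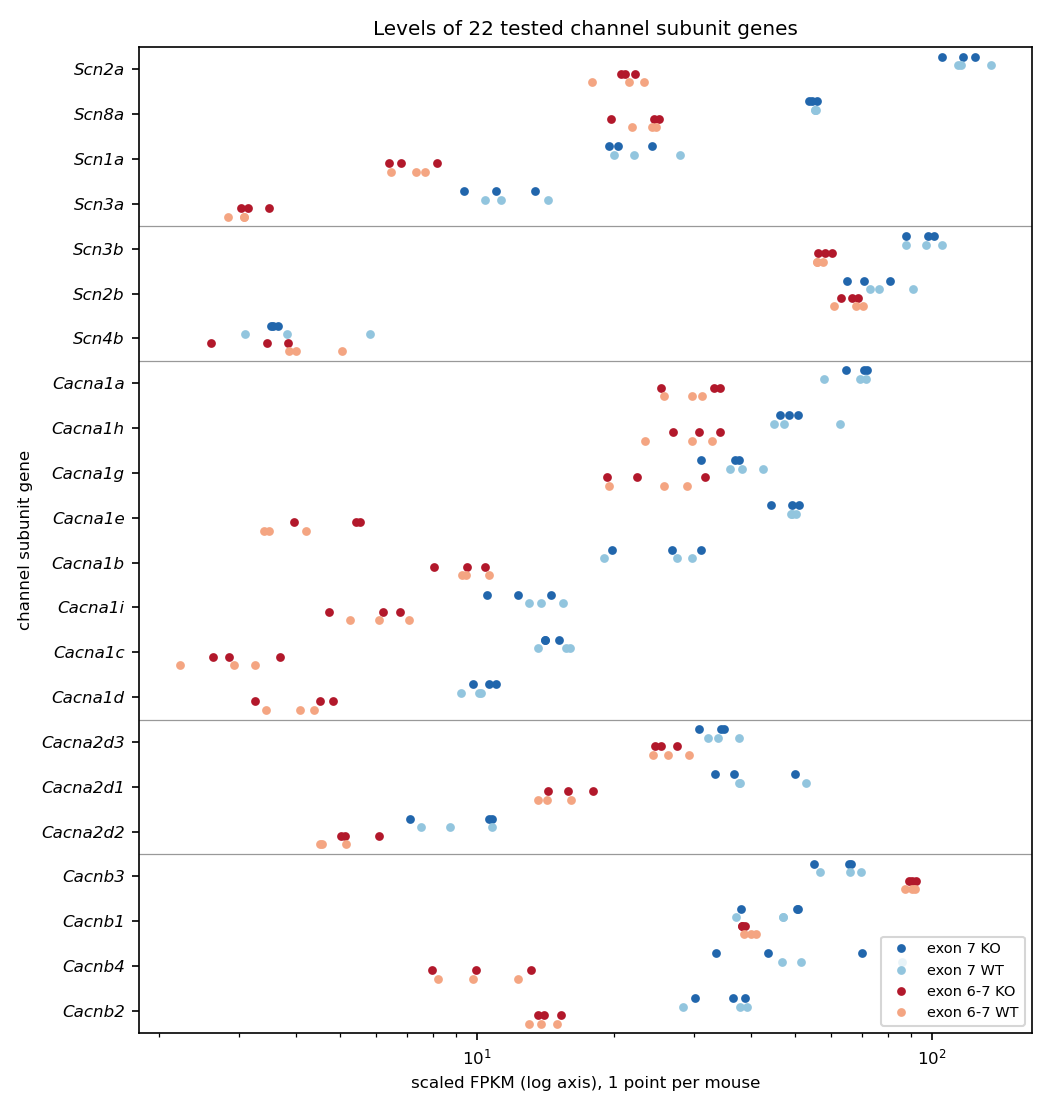
Scaled FPKM (log axis) of 22 tested channel subunit genes, 1 point per mouse, grouped from top to bottom as sodium alpha, sodium beta, calcium alpha1, alpha2delta and calcium beta genes. Knockouts and wild types of a line overlap for all genes shown except Scn4b in the exon 6-7 line, and the exon 7 line (blue) lies to the right of the exon 6-7 line (red) for most genes.

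Among the sodium channel pore genes, Scn2a, Scn8a, Scn1a and Scn3a made up nearly all of the signal. Scn2a (NaV1.2, found on axons of excitatory neurons) had 124, 117 and 105 scaled FPKM in exon 7 KO, 135, 114 and 116 in exon 7 WT, 22.2, 21.1 and 20.7 in exon 6-7 KO, and 21.6, 17.9 and 23.3 in exon 6-7 WT. Scn8a (NaV1.6, the channel of the axon initial segment and nodes) had 54.5, 55.8 and 53.5 in exon 7 KO, 55.2, 55.2 and 55.6 in exon 7 WT, 24.5, 25.1 and 19.7 in exon 6-7 KO, and 24.2, 24.7 and 21.9 in exon 6-7 WT. Scn2a thus stood above Scn8a in all exon 7 mice, while the ranges of the pair overlapped in both exon 6-7 groups: the ratio of Scn2a to Scn8a was 1.96 to 2.27 in exon 7 KO, 2.07 to 2.45 in exon 7 WT, 0.838 to 1.05 in exon 6-7 KO and 0.725 to 1.06 in exon 6-7 WT. Scn1a (NaV1.1, the main pore of fast-spiking interneurons) averaged 21.4 ± 2.47 in exon 7 KO, 23.3 ± 4.08 in exon 7 WT, 7.12 ± 0.921 in exon 6-7 KO and 7.15 ± 0.631 in exon 6-7 WT (SD, n = 3 each). Scn3a, most active before birth, averaged 11.2 ± 2.06, 12 ± 2.02, 3.21 ± 0.239 and 2.99 ± 0.138 in the same 4 groups. In both wild-type groups Scn1a and Scn3a followed in that order, with no overlap between neighbours.

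Among the sodium channel beta genes, Scn3b and Scn2b were well above Scn4b. Scn3b averaged 95.6 ± 7.12 scaled FPKM in exon 7 KO, 96.4 ± 8.67 in exon 7 WT, 58.2 ± 2.12 in exon 6-7 KO and 56.4 ± 1 in exon 6-7 WT (SD, n = 3 each). Scn2b, which binds its alpha subunit through a disulfide bond, averaged 72.1 ± 7.84, 80.1 ± 9.4, 66.1 ± 2.96 and 66.4 ± 4.94 in the same 4 groups. Their wild-type ranges overlapped in the exon 7 line, at 87.5 to 105 for Scn3b and 73.1 to 90.8 for Scn2b, and did not overlap in the exon 6-7 line, at 55.8 to 57.6 for Scn3b and 60.8 to 70.4 for Scn2b. Scn4b, known from Purkinje and striatal neurons as the source of resurgent current, was low, at 2.6 to 5.82 over all 12 mice.

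Among the calcium channel pores, the P/Q-type gene Cacna1a led in both lines. In exon 7 WT it had 57.8, 71.7 and 69.3 scaled FPKM, and its range overlapped that of the T-type gene Cacna1h (44.9, 47.2 and 62.8), which overlapped that of the R-type gene Cacna1e. The T-type gene Cacna1g followed at 35.9 to 42.5 and the N-type gene Cacna1b at 19 to 29.7. In exon 6-7 WT Cacna1a had 29.7, 25.7 and 31.2, Cacna1h 32.8, 29.6 and 23.4, and Cacna1g 19.5, 25.8 and 28.9, so that these 3 neighbours did not part. Cacna1b came next there, at 9.27 to 10.6, followed by the T-type gene Cacna1i at 5.25 to 7.08 and, with overlapping ranges, the L-type gene Cacna1d and Cacna1e. Cacna1e thus stood at a higher place in the order of the exon 7 line. It had 51, 49.2 and 44.3 in exon 7 KO, 48.9, 49.2 and 50.1 in exon 7 WT, 5.52, 5.4 and 3.95 in exon 6-7 KO, and 3.49, 3.4 and 4.2 in exon 6-7 WT. Its ratio to Cacna1a was 0.625 to 0.79 in exon 7 KO, 0.686 to 0.846 in exon 7 WT, 0.155 to 0.163 in exon 6-7 KO and 0.118 to 0.135 in exon 6-7 WT. Cacna1c, the main L-type gene of brain and heart, averaged 14.4 ± 0.576 in exon 7 KO, 15.1 ± 1.3 in exon 7 WT, 3.05 ± 0.552 in exon 6-7 KO and 2.79 ± 0.519 in exon 6-7 WT (SD, n = 3 each).

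The auxiliary calcium channel genes also differed in order between the lines. Cacnb3 had 56.8, 66.1 and 69.6 scaled FPKM in exon 7 WT, and its range overlapped that of Cacnb4. It had 87.2, 90.2 and 91.6 in exon 6-7 WT, where Cacnb1, Cacnb2 and Cacnb4 followed without overlap. Cacnb4, whose loss causes epilepsy and ataxia in the lethargic mouse, had 70, 33.4 and 43.5 in exon 7 KO, 85.8, 51.6 and 46.7 in exon 7 WT, 13.1, 7.94 and 9.95 in exon 6-7 KO, and 9.78, 8.2 and 12.3 in exon 6-7 WT. The highest value of each exon 7 group came from the library that stands apart, KO969 and WT628. The ratio of Cacnb3 to Cacnb4 was 0.783 to 1.98 in exon 7 KO, 0.661 to 1.49 in exon 7 WT, 6.79 to 11.6 in exon 6-7 KO and 7.47 to 11 in exon 6-7 WT. The transcripts of the pair have 2734 and 8225 nt, and their log2 differences between the wild types, -0.48 and 2.46, became 0.12 and 1.23 with length and GC trends removed. Among the alpha2delta genes, Cacna2d1 led in exon 7 WT at 37.6 to 52.9, although its lowest value and the highest of Cacna2d3 were the same to 3 digits. Cacna2d3 led in exon 6-7 WT, at 24.3 to 29.2 against 13.6 to 16.1 for Cacna2d1, and Cacna2d2 was below both of them in each line.

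Promoter sequence is shown for the 3 genes with the largest difference between the wild types, Cacna1e, Scn2a and Cacnb4, to let their start regions be compared. Each window runs from 250 bases before to 50 bases after a RefSeq start on GRCm38.p6, and matches on either strand to GGGCGG, the core of the box bound by Sp1, or to TATAAA, the TATA box, are in capitals. For Scn2a and Cacnb4, which have several starts in the table, the start farthest upstream is given. The windows are chr1:154725871-154726170 on the minus strand for Cacna1e, chr2:65620519-65620818 on the plus strand for Scn2a, and chr2:52676094-52676393 on the minus strand for Cacnb4. For Cacna1e and Cacnb4 the RefSeq start lies inside the annotated gene, and so does the whole window.
Cacna1e: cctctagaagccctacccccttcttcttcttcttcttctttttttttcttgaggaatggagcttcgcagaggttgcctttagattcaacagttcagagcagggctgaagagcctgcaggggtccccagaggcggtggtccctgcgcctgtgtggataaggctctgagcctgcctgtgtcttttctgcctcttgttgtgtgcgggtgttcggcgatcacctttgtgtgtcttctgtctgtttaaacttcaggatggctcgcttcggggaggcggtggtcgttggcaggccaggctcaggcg
Scn2a: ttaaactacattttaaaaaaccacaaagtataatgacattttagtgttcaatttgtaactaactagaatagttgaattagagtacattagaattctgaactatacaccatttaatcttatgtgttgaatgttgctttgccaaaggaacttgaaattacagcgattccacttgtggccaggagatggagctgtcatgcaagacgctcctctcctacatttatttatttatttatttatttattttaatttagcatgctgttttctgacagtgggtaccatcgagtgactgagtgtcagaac
Cacnb4: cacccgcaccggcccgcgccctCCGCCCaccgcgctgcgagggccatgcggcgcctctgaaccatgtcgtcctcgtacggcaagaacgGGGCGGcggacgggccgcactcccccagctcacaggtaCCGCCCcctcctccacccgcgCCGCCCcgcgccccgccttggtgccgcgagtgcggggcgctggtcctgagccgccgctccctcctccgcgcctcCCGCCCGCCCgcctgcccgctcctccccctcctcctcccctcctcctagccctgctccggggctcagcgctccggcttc
The Cacnb4 window has 6 matches to GGGCGG, partly overlapping, and a GC content of 78.3%. The other 2 Cacnb4 windows in the table have none, with 49.7% and 69.7% GC. The Cacna1e window has none and 55.3% GC. The Scn2a window shown has none of either motif and 33% GC, and the second Scn2a window has 1 match to TATAAA and 47.7% GC, so that what the letters show depends on the start chosen. Over the 34 windows found for 24 of the channel genes, 14 held GGGCGG and 2 held TATAAA, against 35.7% and 13.6% of the 32851 windows in the table, and the median GC content was 59.5%, against 52.7%. These are descriptions of the letters in the windows. Several channel genes lie side by side in the genome: Scn3a, Scn2a, Scn1a, Scn9a and Scn7a share 1328 kb of chromosome 2 (65457118 to 66784914), and Scn2b and Scn4b lie within 36.4 kb of each other on chromosome 9 (mm10).

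In the exon 7 line, knockout and wild-type mice had overlapping values for every one of the 23 genes, where 3.27% of all genes lay wholly above and 3.77% wholly below. None passed the threshold (adjusted p under 0.05, limma, Benjamini-Hochberg over 14209 genes), as none of all genes did (0%), and none had an unadjusted p under 0.05, against 3.46% of all genes. The median log2 fold change of the 23 genes was -0.06, against -0.01 over all genes, with 6 above 0 and 17 below. Among the genes with the smallest p were Scn2b, Cacnb4 and Cacna1i, and these had lower means in the knockouts. Scn2b had 80.6, 70.7 and 65.1 scaled FPKM in exon 7 KO, against 90.8, 73.1 and 76.4 in exon 7 WT (log2 fold change -0.15, SE 0.106, adjusted p 1). The difference for Cacnb4 was -0.33 (SE 0.283, adjusted p 1), with a 95% interval of -0.95 to 0.28. Cacna1i had 10.5, 12.3 and 14.5 in exon 7 KO, against 13, 15.4 and 13.8 in exon 7 WT (-0.17, SE 0.147, adjusted p 1). Within the libraries that stand apart the exon 7 difference was -0.17 for Scn2b, -0.29 for Cacnb4 and -0.28 for Cacna1i, and within the other libraries it was -0.14, -0.36 and -0.12.

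In the exon 6-7 line, in which Shank2 itself was lower in the knockouts (-1.04, SE 0.119, adjusted p 0.0111), none of the 23 genes passed either (smallest adjusted p 1, with 0.0141% of all genes called). At an unadjusted p under 0.05 there were 1 higher and 1 lower gene of 23, against 4.1% of all genes in either direction. Cacna1e had 5.52, 5.4 and 3.95 in exon 6-7 KO, against 3.49, 3.4 and 4.2 in exon 6-7 WT, a log2 fold change of 0.33 (SE 0.116, p 0.0137, adjusted p 1). The lowest knockout lay below the highest wild type. Scn4b was the 1 gene with all knockouts below all wild types, at 3.83, 2.6 and 3.45 in exon 6-7 KO, against 3.99, 3.86 and 5.03 in exon 6-7 WT (-0.31, SE 0.177, p 0.11, adjusted p 1; exact permutation p 0.1, the smallest that 3 against 3 mice allow). Over all genes 6.31% lay wholly below and 5.02% wholly above, and no channel gene lay wholly above. Cacna2d2, next by p, had 5.13, 6.08 and 5.01 in exon 6-7 KO, against 4.52, 4.56 and 5.15 in exon 6-7 WT (0.16, SE 0.159, adjusted p 1). The median over the 23 genes was 0.02, with 13 above 0 and 10 below.

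**Figure D2:**
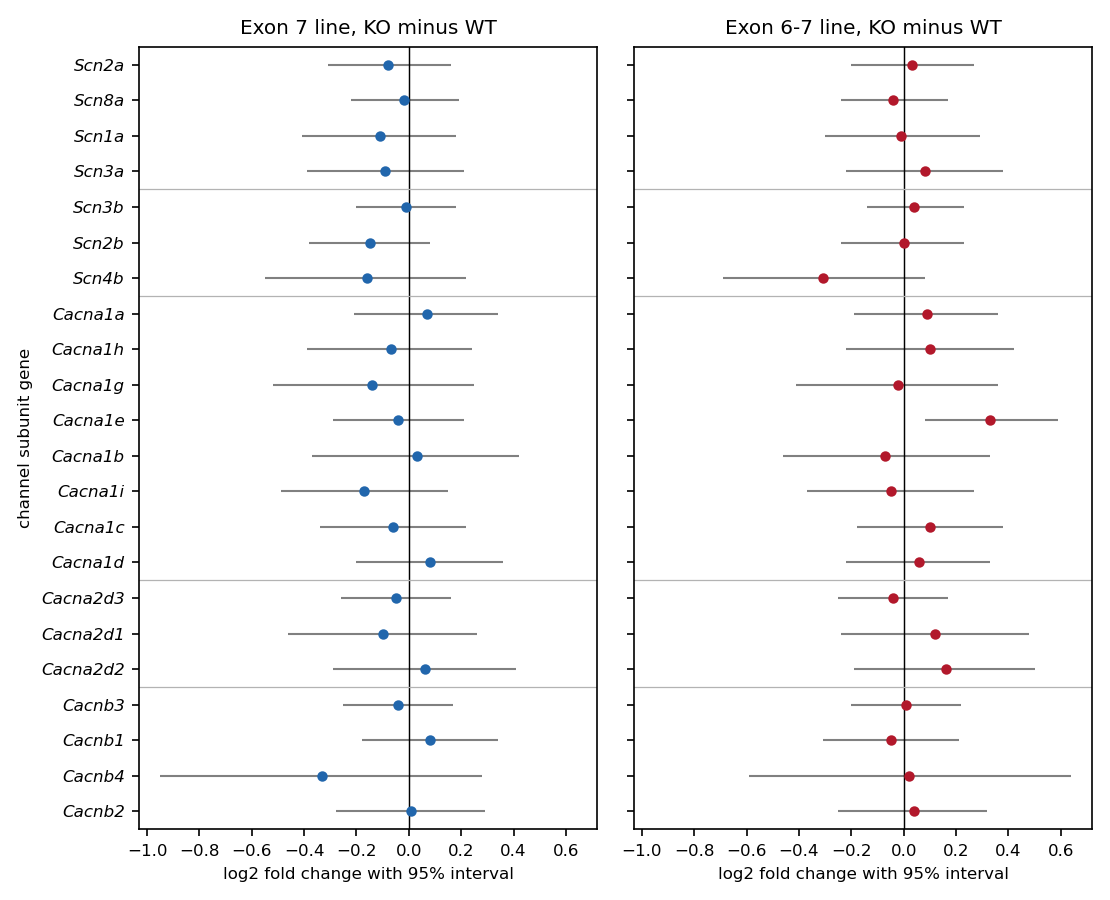
Log2 fold change, knockout minus wild type, of 22 tested channel genes with 95% intervals (n = 3 mice a group), exon 7 line on the left and exon 6-7 line on the right. Among the genes shown, the interval leaves out 0 for Cacna1e in the exon 6-7 line, with no adjustment for the number of genes, and Cacnb4 has the widest interval in both lines.

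The intervals show what size of change the data can speak to. The bound used was 0.58 in either direction on the fitted log2 scale, a 1.5-fold change of scaled FPKM + 1. The matching change of FPKM itself is larger for low genes such as Scn4b. In the exon 7 line the 95% interval of 22 of the 23 genes lay within this bound, the exception being Cacnb4. That of Scn4b, -0.55 to 0.22, came near it. In the exon 6-7 line the interval of 20 genes did, and those of Cacna1e, Cacnb4 and Scn4b reached further. By subunit class, the median change in the exon 7 line was -0.08 for the sodium alpha genes, -0.14 for the sodium beta genes, -0.05 for the calcium alpha1 genes, -0.05 for the alpha2delta genes and -0.02 for the calcium beta genes. In the exon 6-7 line the same medians were 0.01, -0.11, 0.07, 0.12 and 0.02. The 4 sodium beta genes were all below 0 in the exon 7 line and 3 of the 4 in the exon 6-7 line. Over all 14209 genes 7569 and 7184 were below 0. Some of the sodium beta values were close to no change, with Scn3b at -0.01 in the exon 7 line and Scn2b at -0.00 in the exon 6-7 line. The exon 7 difference of Scn4b was -0.16, with -0.55 within the libraries that stand apart and 0.03 within the other libraries.

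The 2 knockout effects were also set against each other and averaged. The difference, exon 7 effect minus exon 6-7 effect, passed for none of the 23 genes (0.00704% of all genes called). The 1 gene with an unadjusted p under 0.05 was Cacna1e, with a log2 difference of -0.37 (SE 0.164, p 0.0421, adjusted p 1, in a comparison where 3.87% of all genes had an unadjusted p under 0.05, effects of -0.04 for exon 7 mice and 0.33 for exon 6-7 mice). The mean of the 2 effects passed for none either (0.0141% of all genes called), and 1 of the 23 had an unadjusted p under 0.05, against 3.63% of all genes. Marker genes of other cells also differed in their means, although no marker gene passed the threshold in either line. All 10 myelin genes had lower knockout means in both lines, with medians of -0.12 for exon 7 mice and -0.32 for exon 6-7 mice. Their summed levels were 4696 to 5009 scaled FPKM in exon 7 KO, 5196 to 5360 in exon 7 WT, 4758 to 4879 in exon 6-7 KO and 5433 to 6740 in exon 6-7 WT. The 10 choroid plexus and ependyma genes had medians of 0.24 and 1.45, and their sum in the exon 6-7 line was 7351 to 9013 in knockouts and 115 to 9137 in wild types, the lowest in WT865. The summed interneuron markers were 1001 to 1247 in exon 7 KO and 980 to 1219 in exon 7 WT, which overlap, and 1762 to 1839 in exon 6-7 KO and 1958 to 1980 in exon 6-7 WT, which do not. Of these 10 markers 8 had lower means in exon 6-7 KO and 2 higher, with a median of -0.07. Sst, 1 of the most abundant, overlapped there, at 592 to 706 in exon 6-7 KO and 689 to 711 in exon 6-7 WT. All 8 meninges and fibroblast genes had higher means in exon 6-7 KO (median 0.55, sums of 164 to 201 in exon 6-7 KO and 101 to 178 in exon 6-7 WT), and all 8 microglia genes had lower ones (median -0.15, sums of 157 to 192 and 176 to 216). All 9 tested markers of neighbouring cortex, striatum and thalamus had higher means in exon 6-7 KO (median 0.12), with overlapping sums of 102 to 123 and 76.4 to 114. Of the 10 pan-neuronal markers 8 had lower means in exon 6-7 KO and 2 higher (median -0.09). In the exon 7 line the medians of the neighbouring-region and pan-neuronal markers were 0.02 and -0.01. Within the libraries that stand apart the exon 6-7 difference was 0.54 for Cacna1e, -0.05 for Scn4b and 0.15 for Cacna2d2, and within the other libraries it was 0.23, -0.44 and 0.16. The part of the marker genes in the Scn4b and Cacna1e differences was not tested.

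**Figure D3:**
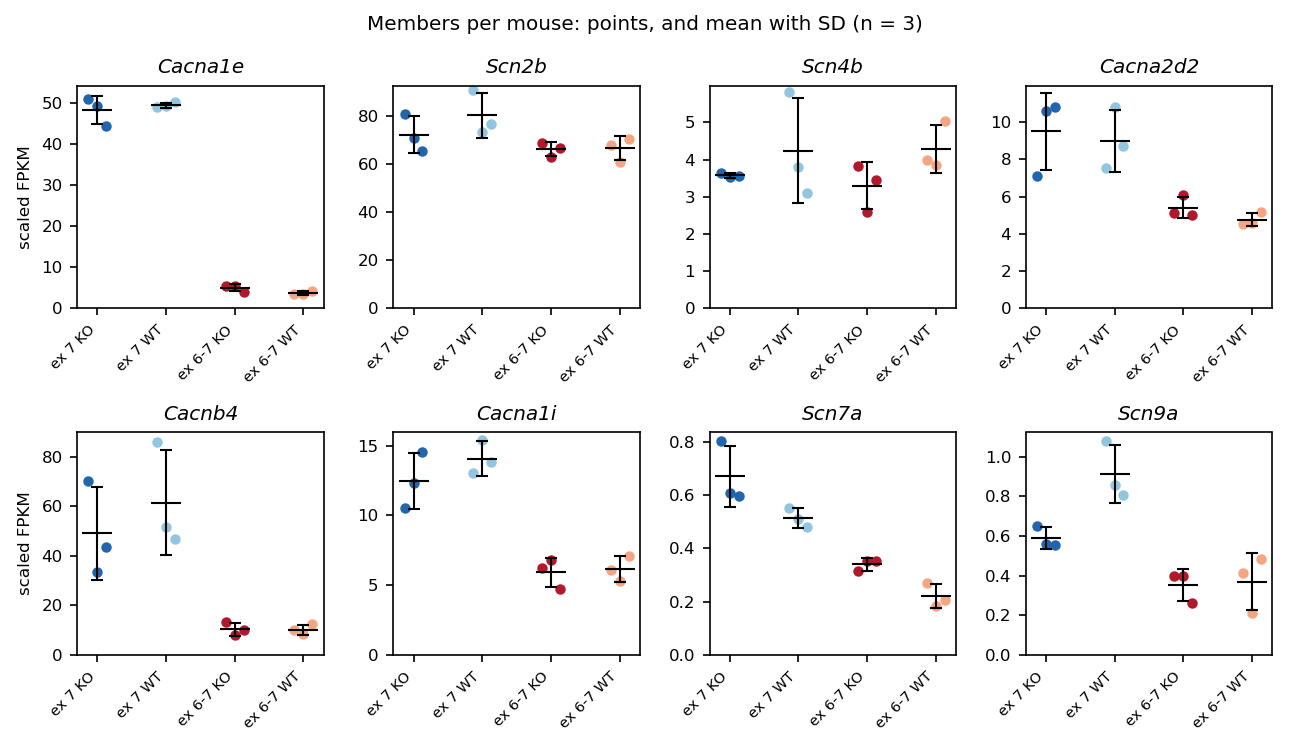
Scaled FPKM per mouse (points) with the group mean and SD (n = 3 mice) for 8 channel genes, exon 7 groups left and exon 6-7 groups right, each knockout left of its wild type. Scn4b in exon 6-7 KO lies below all exon 6-7 WT mice, Scn7a in both knockouts lies above its wild types, and Cacna1e parts the lines by far more than the genotypes.

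The 8 genes below 1 scaled FPKM include channels known from retina, muscle and sensory neurons. Scn10a and Scn11a, the pores of pain-sensing neurons, were listed in 6 and 4 of the 12 mice and never exceeded 0.047. Cacna1s, the skeletal muscle L-type pore, ranged from 0.216 to 1.2. Scn7a, a sodium-sensing relative of the sodium channels, had 0.804, 0.609 and 0.598 in exon 7 KO, against 0.551, 0.511 and 0.479 in exon 7 WT, and 0.313, 0.354 and 0.351 in exon 6-7 KO, against 0.271, 0.183 and 0.207 in exon 6-7 WT. All knockouts thus lay above all wild types in both lines, with a mean effect of 0.14 (SE 0.0432, p 0.00922, adjusted p 1 in the fit with no filter). Scn9a (NaV1.7) had 0.653, 0.559 and 0.554 in exon 7 KO, against 1.08, 0.858 and 0.806 in exon 7 WT (-0.27, SE 0.0909, adjusted p 1), and its groups overlapped in the exon 6-7 line. Cacna2d4 was wholly lower in exon 7 KO, at 0.505 to 0.53 against 0.538 to 0.664, and Cacna1f, the retinal L-type pore, wholly lower in exon 6-7 KO, at 0.0103 to 0.0831 against 0.157 to 0.265. Of the 8 genes, 1 was wholly above and 2 wholly below in the exon 7 line, where 3.47% and 2.61% of the 10160 low genes were, and 1 and 1 in the exon 6-7 line, where 3.32% and 2.68% were. Between the wild types, 2 of the 8 (Scn7a and Scn9a) lay wholly above and 1 (Cacna1s) wholly below in exon 7 WT, where 11.1% and 7.35% of the low genes did. The 10160 low genes include genes listed in only some mice, as Scn10a and Scn11a were. Such a gene can part 2 groups only where every mouse of 1 group lists it. The shares are thus not matched to low genes that were listed in all 12 mice. The number of fragments behind such values is not known, and the genes named here were picked after their values were seen.

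Genes listed as partners or relatives of these channels were read from 5 lists. The gamma subunit genes were taken by their symbols, and the sodium leak channel is a complex of its own. A place in a list therefore does not show that the product binds a channel described here. None of the 6 tested gamma subunit genes, the 12 sodium channel binding and axon initial segment genes, the 12 presynaptic scaffold genes, the 9 calcium channel inhibitors and adaptors or the 4 genes of the sodium leak channel complex passed in either line. Cabp1, a calmodulin relative that binds calcium channels, had 56.2, 61.1 and 60.4 scaled FPKM in exon 7 KO, against 61.1, 70 and 66.5 in exon 7 WT, and 113, 116 and 115 in exon 6-7 KO, against 138, 150 and 127 in exon 6-7 WT. Every exon 6-7 knockout lay below every wild type (-0.27, SE 0.0832, p 0.00755, adjusted p 1; -0.28 within the libraries that stand apart and -0.26 within the others). Stac2, an adaptor of L-type channels, had 20.8, 22 and 21.1 in exon 7 KO, against 26.3, 24.6 and 24.9 in exon 7 WT, without overlap (-0.24, SE 0.0945, p 0.0284, adjusted p 1; -0.33 within the libraries that stand apart and -0.19 within the others), and overlapped in the exon 6-7 line. In their lists the smallest p otherwise belonged to Cacng8, Nrcam, Rims4 and Unc79 in the exon 7 line, with log2 fold changes of 0.26, -0.12, -0.19 and -0.11. In the exon 6-7 line it belonged to Cacng3, Ank3, Erc2 and Unc79, with -0.17, 0.14, 0.18 and 0.21, and the adjusted p of all of these was 1. Of these genes, Cacng8 lay wholly above and Rims4 wholly below in exon 7 KO, and the others overlapped. Over all genes 3.27% lay wholly above and 3.77% wholly below in the exon 7 line, and 5.02% and 6.31% in the exon 6-7 line.

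Between the wild types of the lines, 21 of the 23 channel genes passed the threshold, 19 higher and 2 lower in exon 7 WT than in exon 6-7 WT (91.3%, limma). Over all genes 67.1% passed, 34% higher and 33.1% lower, so that a call as such is common in this comparison. Most called channel genes were higher, but genes with long transcripts tended to be higher in general. The Spearman correlation of the difference with length was 0.67 over tested genes, as described further on. With length and GC trends removed, 12 channel genes were called higher and 0 lower, where 3387 and 3528 of all genes were. The part of transcript length in the direction was not tested. All 4 sodium alpha, all 8 calcium alpha1 and all 3 alpha2delta genes were higher, with median log2 fold changes of 1.63, 1.15 and 0.79, and the median over the 23 genes was 1.14, against 0 over all genes. The 5 largest were Cacna1e at 3.43 (SE 0.116, adjusted p 7.97e-09), Scn2a at 2.49 (SE 0.108, adjusted p 2.09e-08), Cacnb4 at 2.46 (SE 0.283, adjusted p 1e-05), Cacna1c at 2.09 (SE 0.128, adjusted p 8.5e-08) and Scn3a at 1.69 (SE 0.137, adjusted p 6.1e-07). Among the lower genes was Cacnb3 (-0.48, SE 0.0956, adjusted p 0.00076), which was above 0 (0.12) once length and GC trends were removed. Cacnb1 (0.12) and Scn4b (-0.04) did not pass. Between the wild types that stand apart, WT628 and WT778, the difference was 3.47 for Cacna1e, 2.59 for Scn2a, 3.01 for Cacnb4, 1.90 for Cacna1c, 1.91 for Scn3a and -0.61 for Cacnb3, and between the other wild types it was 3.40, 2.44, 2.18, 2.19, 1.59 and -0.42. Scn4b and Cacnb1 changed sign, with 0.45 and -0.06 between WT628 and WT778 and -0.29 and 0.21 between the others. The 3 wild types of each line did not overlap for these 21 genes, 19 above and 2 below, where 35.7% and 34.5% of all genes did the same. The labels name no date or batch, all mice of a line share the line, and the line and whatever accompanied it in breeding, dissection or sequencing cannot be told apart.

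In the knockouts, which are other animals, exon 7 KO minus exon 6-7 KO was 3.05 for Cacna1e, 2.38 for Scn2a, 2.10 for Cacnb4 and -0.53 for Cacnb3 on the same log2 scale. Some genes changed places: Cacnb1 was at 0.25 and Scn2b at 0.12 in the knockouts, against 0.12 and 0.26 in the wild types, and Scn4b was at 0.10, against -0.04. Over both genotypes, all 6 mice of the exon 7 line lay above all 6 of the exon 6-7 line for 17 of the 23 genes (30% of all genes) and below for 2 (27.4% of all genes), while Cacna1g, Scn2b, Cacnb1 and Scn4b overlapped. Beside this, 10.3 to 14.3% of the summed FPKM was mitochondrial in mice of the exon 7 line, against 6.22 to 7.39% in mice of the exon 6-7 line.

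The difference between the wild types followed transcript length. Its Spearman correlation with the longest annotated transcript was 0.75 over the 23 channel genes and 0.67 over the 14050 tested genes with a length, and with GC content -0.69 and -0.41; these describe genes that share the same 6 libraries. Cacnb3, which was lower, has 2734 nt, and Cacna1e, the longest, was the one with the largest difference. After a spline on length and GC content had been subtracted from each library, 12 of the 23 genes passed (52.2%, against 48.7% of all genes). All 12 were higher, where 3387 of all 14209 genes were called higher and 3528 lower. The median of the 23 genes was 0.36. Cacna1e was then at 2.03 (SE 0.0942, adjusted p 5.78e-08), Scn2a at 1.27 (SE 0.0788, adjusted p 3.79e-07), Cacnb4 at 1.23 (SE 0.225, adjusted p 0.000795) and Cacna1c at 0.84 (SE 0.112, adjusted p 8.46e-05). Cacnb3 was at 0.12, Scn8a at 0.04 and Cacna1d at 0.04, none of which passed. Partner lists leaned the same way before the trends were removed, and their values after removal are not given here. Above 0 were 11 of 12 axon initial segment genes and 11 of 12 presynaptic scaffold genes. The list medians were 1.13 and 1.29, against -0.00 over all genes. Ank3 (ankyrin-G, which anchors sodium channels) was higher in exon 7 WT by 2.04 and Pclo (piccolo, an active zone scaffold) by 2.02. Of the 9 inhibitors and adaptors only 3 were above 0, with a median of -0.41 and Cabp1 at -1.06.

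**Figure D4:**
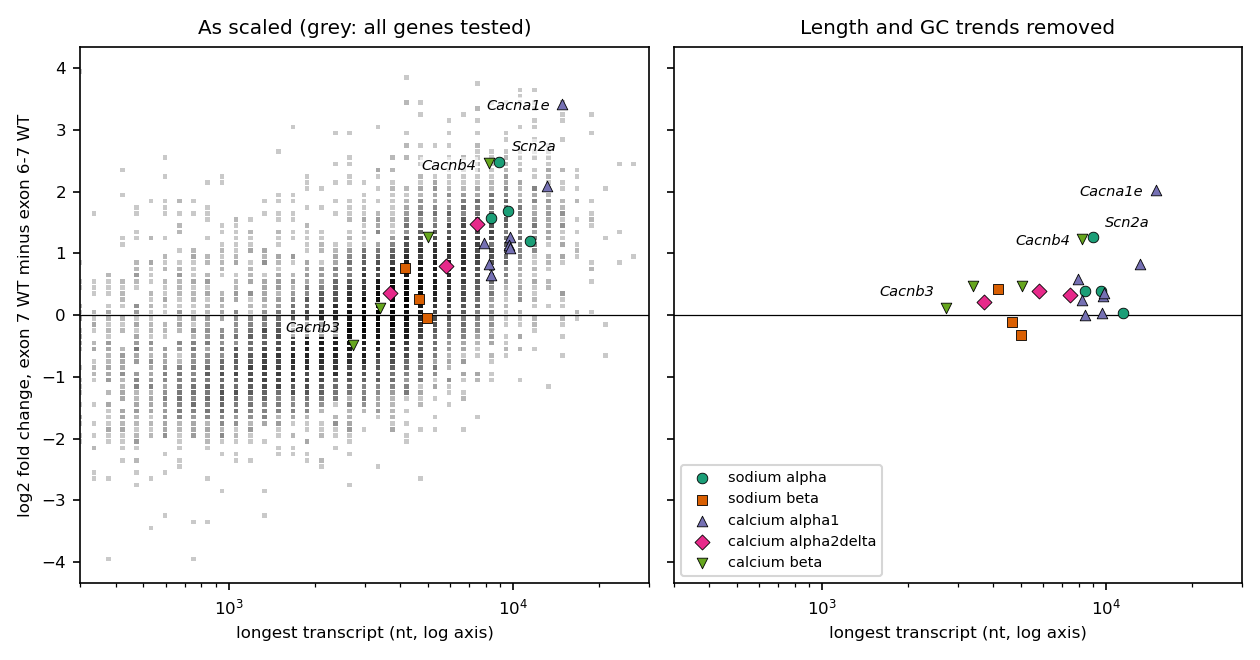
Log2 fold change, exon 7 WT minus exon 6-7 WT, against the longest transcript (log axis) for 22 channel genes, as scaled on the left with all tested genes in grey (darker where more genes lie) and with length and GC trends removed on the right. Cacnb3 lies below 0 on the left and at 0.12 on the right, while Cacna1e, Scn2a and Cacnb4 remain highest, at 2.03, 1.27 and 1.23.

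Within the exon 7 line the libraries that stand apart, KO969 and WT628, differed from the other 4 in 10 of the 23 channel genes (43.5%, against 31.5% of all genes). Higher in them were Cacnb4 (0.83, SE 0.172, adjusted p 0.00517), Cacna2d1 (0.49, SE 0.0651, adjusted p 0.000489), Scn3a (0.37), Scn1a (0.33) and Scn2b (0.26). Lower were Cacna1b (-0.54, SE 0.104, adjusted p 0.00336), Cacna2d2 (-0.43), Cacnb1 (-0.37), Cacnb2 (-0.37) and Cacnb3 (-0.26). Cacna2d1, for example, had 49.9 in KO969 and 52.9 in WT628, against 33.3 to 37.9 in the other 4 mice. In the exon 6-7 line no channel gene passed this comparison (6.8% of all genes did), with the smallest adjusted p at 0.0559. Each group holds 1 such library. Leaving out all 4 left the knockout calls at 0 of 23 in both lines.

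**Figure D5:**
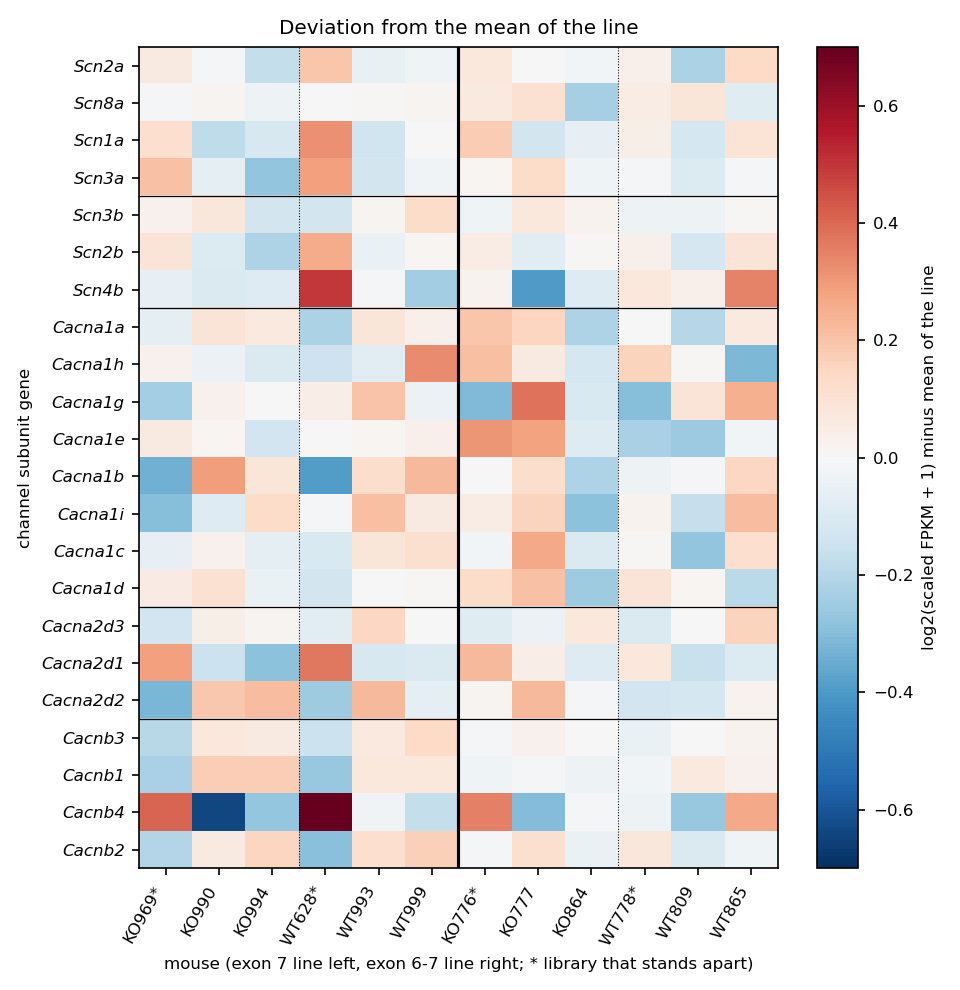
Deviation of log2(scaled FPKM + 1) from the mean of the line for 22 channel genes (rows) in the 12 mice (columns), exon 7 line left and exon 6-7 line right, each with knockouts before wild types; an asterisk marks a library that stands apart. The strongest colours of the exon 7 line are Cacnb4 at 0.70 in WT628 and -0.64 in KO990, followed by Scn4b at 0.50 in WT628.

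Some values rest on sequence that other genes share. Windows of 50 bases that also occur in another annotated gene made up 8.53% of the Scn3a transcript, 7.76% of Scn2a, 5.48% of Scn1a and 5.36% of Scn9a, and reads from these relatives could be split between them. Opposite-strand genes cover exon bases of 9 of the channel genes, with 16% of Cacnb4 shared with A430018G15Rik and 20% of Cacna1s with Gm37759, and the counting is not stated to use strand.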

How the data were processed

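Per the labels' protocols, total RNA was extracted with TRIZOL, poly(A) RNA was selected, and TruSeq libraries, 1 per mouse, were cut from a gel by size. The authors deposited 1 table of FPKM per mouse with Ensembl release 74 identifiers, per the file headers. CASAVA, GSNAP, Cufflinks and the mm10 build are named, per the submitters' processing notes; their roles and the handling of strand and multiply mapped reads are not stated there. FPKM keep no read total, so depth is unknown and no counting interval is attached; only genes above 0 are listed, and an unlisted gene was set to 0.

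Scaling used the median of ratios over 12511 genes (factors 0.919 to 1.07); 113 small RNAs were left out. Genes reaching a mean of 1 scaled FPKM (14209) were fitted as log2(scaled FPKM + 1), which understates the change of low genes, with limma 3.58.1 (limma-trend, R 4.3.3), 4 group means and 1 spread over 12 libraries (8 residual degrees of freedom, prior 3.88). Tests are two-sided, with Benjamini-Hochberg adjusted p-values and a threshold of 0.05. The exact permutation test uses 20 relabellings of 3 against 3. Highest share of equal values between libraries was 0.00546%. Symbols, lengths and coordinates are from GENCODE M21 (mm10), and 24065 of 24590 identifiers had a symbol; promoters are from RefSeq. The code was tested on simulated data. No paired analysis is possible, since mouse numbers are not shared between groups.

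The channel genes, lists, libraries that stand apart and alternatives were chosen with earlier results of these data known. Named were, per knockout comparison, the genes past the threshold or otherwise the 4 with the smallest p, per partner list the smallest p, and between wild types the 5 largest; any other gene was named with its values known. Some channel genes, also among those this rule selects, are counted but not reported here. The alternatives were pseudocounts, filters, scalings, weights, lines fitted alone, a term for the libraries that stand apart, length and GC trends removed (splines with 4 degrees of freedom), and each mouse left out; leaving out the 4 libraries was added after seeing the data.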

Additional observations from a re-analysis of the deposited data

How the results depend on the processing

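No channel gene passed in either knockout comparison, in the difference of the effects or in their mean under any alternative, and leaving out each mouse gave 0 to 0 calls. The 306 recomputed values cover only the genes picked by the naming rule, each in the comparison that picked it. All of these kept their direction and their side of the threshold. Other genes named in the text are not among them, and some, such as Cacnb3 between the wild types, did change. Without each mouse in turn, the median of the 23 genes was -0.08 to -0.03 in the exon 7 line, -0.01 to 0.05 in the exon 6-7 line, -0.13 to -0.01 for the difference and -0.03 to 0.02 for the mean; between the wild types it was 1.09 to 1.19, with 20 to 21 genes called. The adjusted p of Cacna1e in the exon 6-7 line was 0.37 to 1 over 24 alternatives.

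Between the wild types the call count was 21 and became 12 with length and GC trends removed, where 67.1% and 48.7% of all genes passed. The median there was 1.14, and was 0.78 with a pseudocount of 5, 0.76 with no filter (which adds the low genes), 1.0 with FPKM as deposited, 1.33 rescaled to TPM and 0.36 with length and GC trends removed; the cause was not tested beyond what each setting changes by construction. FPKM as deposited moved the median of all genes by -0.13 and TPM by 0.13: of the called genes 42.3% and 58.9% were then higher, against 50.7%. The channel genes called were 17 higher and 2 lower as deposited and 19 and 2 in TPM. Quantile normalization gave 19 and 1, with Cacnb3 at -0.22. Scn4b was 0.08 in TPM and Cacnb1 -0.03 as deposited, so that their direction is not settled. With the trends removed Cacnb1 was at 0.48 (SE 0.0806, adjusted p 0.00044, limma) and passed, while Scn4b was at -0.32 and did not. The direction of Cacnb3 and Scn2b changed, among these scalings, only with the trends removed (0.12 and -0.11). No paired analysis was possible because mouse numbers are not shared between groups. With 3 mice a group, the data limit what can be seen in Cacnb4, whose SE was 0.283.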
